A study of Mus musculus with 16 samples.

Results

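The transcripts described here encode the proteins of the mitochondrial ribosome. Members were chosen by gene symbol alone, as every mouse gene named Mrpl or Mrps followed by a number and at most 1 letter. Of 78 such genes, 74 had a mean CPM (reads scaled to library size, the authors' mean over the libraries) of at least 1, out of 9628 genes that reached this level and 21177 genes in the table. They were 47 Mrpl and 27 Mrps genes. The lowest members were Mrps15 at 1.08 CPM and Mrpl1 at 2.04 CPM. Just outside were Mrpl39 at 0.932 CPM and Mrps31 at 0.821 CPM, followed by Mrps36 at 0.106 CPM and Mrpl23, for which a T-to-C rate above 0 was listed in 1 library of 16. Mrps36 is now known as a subunit of the oxoglutarate dehydrogenase complex, so its absence takes no ribosomal protein from the list.

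The mitochondrial ribosome translates the few messages of mitochondrial DNA, which code for core subunits of the respiratory chain. Its RNA comes from mitochondrial DNA, but its proteins come from nuclear genes, are made in the cytosol and are imported. Mrpl genes are named for the large subunit, which forms peptide bonds and holds the exit tunnel, and Mrps genes for the small subunit, which reads the message. Mrps18a and Mrps30 are exceptions, since their proteins sit in the large subunit. Many of the proteins have a counterpart in bacterial ribosomes, and others are found only in mitochondria. YBX1 is an RNA-binding protein with a cold-shock domain.

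The series followed mouse leukemia cells of strain C57BL/6, with bone marrow as the labelled tissue, that were WT or YBX1-/-; how YBX1 was deleted and how the leukemia was made are not given in the sources used here. Cells of both genotypes were fed 50 µM 4-thiouridine (4sU), a uridine analog that is read as T-to-C changes in sequencing (SLAM-seq), for 24 h. They were then washed and kept with 10 mM unlabelled uridine for 0, 0.5, 1, 3, 6, 12, 18 or 24 h. There was 1 library of polyA RNA for each genotype and time point, 16 in all, so no value below has a replicate and every test measures the scatter of time points around a fit, not the spread between animals or cultures. The T-to-C rate of an interval is given in percent. Its fall over the chase can come from decay of the labelled transcript or from dilution by new unlabelled RNA, which cannot be told apart, so half-life here means that of the label.

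The myeloid markers Lyz2 (7376 CPM), S100a8 (783 CPM) and Elane (478 CPM) were abundant. In the same list Cd34 (7.38 CPM) and Kit (1.94 CPM) were far lower, and the others lay between Mpo (33.6 CPM) and S100a9 (584 CPM). The B cell, T cell and stromal markers examined were at most 0.461 CPM, and the erythroid ones at most 1.14 CPM (Hbb-bs). Of the megakaryocyte markers, Pf4 was at 39.8 CPM and Itga2b at 1.60 CPM. Levels of the markers in single libraries were not used here, so their part in the results was not tested. The rate of Ybx1 itself was 55.2, 61.4, 56.8, 50.1, 38.9, 15.5, 7.30 and 5.08% over the 8 WT libraries. It was 72.0, 51.7, 43.4, 48.9, 31.1, 20.8, 4.67 and 3.08% over those labelled YBX1-/-. Labelled reads were thus present in both, and since a rate is not a level, it does not check the genotype. The depth of the libraries is unknown. The YBX1-/- library at 0 h stood apart, with 3.64% of the tested genes listed at a rate of exactly 0, against 0.0945% in the WT library at 0 h, and with Mrpl1 listed at 100%.

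Features of the members that the choice by symbol did not use are described here without a test. All 74 intervals lay in a 3′ UTR, and 18 also held coding sequence. The shares of such intervals over the 9628 genes were not counted, so these counts do not set members apart. They were spread over 17 chromosomes, with the most, 11, on chromosome 11. The median interval was 328 bases long, against 1165 bases over the 9628 genes, and the median T content was 27.8%, against 29.0%. Short intervals were not particular to members, with medians of 217 bases in cytosolic ribosomal protein genes and 167 bases in respiratory complex I genes. In those lists the median of mean CPM was 10.6 and 22.0. The median of mean CPM was 14.1 for members and 7.33 over the 9628 genes; CPM is not scaled to length and is given only for the reads behind a rate. The most read intervals were those of Mrps14 (196.6 CPM), Mrpl33 (138.7 CPM), Mrpl17 (117.7 CPM) and Mrpl42 (103.3 CPM).

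The ends of 3 of these intervals are shown to place the measured RNA at the poly(A) signal, AATAAA, in capitals. Sequences come from GENCODE M21 transcripts on GRCm38, 5′ to 3′ on the transcript strand. Mrps14 lies at chr1:160199787-160199816 on the plus strand, Mrpl33 at chr5:31622606-31622635 on the plus strand and Mrpl42 at chr10:95480809-95480838 on the minus strand.
Mrps14: gtacaagagtggAATAAAcatattttctgt
Mrpl33: tttataggccttAATAAAaaaatatcaaaa
Mrpl42: tatataggaaaaAATAAAaataccctttca

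AATAAA was found in the last 100 bases of 34 of 69 member intervals that were at least that long (49.3%), against 66.4% of 9409 intervals of all genes. The AU-rich element core ATTTA was in 20.3% of members and 22.4% of all. TGTANATA, the core bound by Pumilio proteins, was in 1 member (1.45%) and in 4.90% of all. GGACT, one form of the sequence in which adenosine is often methylated to m6A, was in 4 members (5.80%) and in 6.55% of all. Motifs were searched on the transcript strand only and may overlap each other. The GGACT sites are shown because the title of the series names m6A, with the motif in capitals; a match is not a methylated site. They lie at chr19:4964841-4964870 (Mrpl11, plus strand), chr17:46650092-46650121 (Mrpl2, plus), chr14:20389381-20389410 (Mrps16, minus), chr3:8802216-8802245 (Mrps28, minus) and, in an interval of only 70 bases, chr14:54429682-54429711 (Mrpl52, plus).
Mrpl11: agctgagccaaaGGACTtcatggcaacccg
Mrpl2: actgattgccctGGACTctaataaaatgtc
Mrps16: ctattcctgcatGGACTgagggattcatcc
Mrps28: tGGACTgcgcttgctgtatttgaacccatt
Mrpl52: tcaaacctaaagGGACTttactgagaagcc

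RefSeq promoter windows of GRCm38.p6, from 250 bases before to 50 after the gene start, were found for 65 of the 74 members. CCGGAAG, a core of ETS-family sites, was in 26 of them on either strand (40.0%), against 22.8% of the 7668 genes with a mean CPM of at least 1 and a promoter entry. AAGATGGC, a core of YY1 sites, was in 12 members (18.5%) and 6.18% of those genes, and 3 members had both. GCGCATGC, a core of NRF1 sites, was in 7 members (10.8%) and 6.56%, and TATAAA was in 5 members (7.69%) and 8.29%. No CCGGAAG match shared bases with an AAGATGGC match in the fused form of the pair, and GCGCATGC can overlap its own reverse complement, in which case a gene was counted once. The promoters of cytosolic ribosomal protein genes had CCGGAAG in 16 of 42 (38.1%), and those of complex I genes in 3 of 31 (9.68%). AAGATGGC was in 4 (9.52%) and 7 (22.6%) of these, so its share in complex I genes was above that in members. GCGCATGC was in 3 (7.14%) and 3 (9.68%).

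Stretches of 30 bases are shown for members with many reads, with the motif in capitals and the strand of the gene. CCGGAAG stood at chr5:31613937-31613966 (Mrpl33, plus) and chr7:105811306-105811335 (Mrpl17, minus). AAGATGGC stood at chr10:95501904-95501933 (Mrpl42, minus) and chr6:71823743-71823772 (Mrpl35, minus).
Mrpl33: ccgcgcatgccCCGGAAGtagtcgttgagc
Mrpl17: gcatgctccgcCCGGAAGgcgcctcctcca
Mrpl42: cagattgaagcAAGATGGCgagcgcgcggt
Mrpl35: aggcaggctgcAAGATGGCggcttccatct

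The half-lives of the label, described below, were set beside the motif without a test. The 25 tested members with CCGGAAG had 3.57 h in WT and 4.32 h in YBX1-/-, and the 36 without it 3.81 and 4.20 h.

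The first question was how fast the transcripts lost their label. In both genotypes, the medians of mitochondrial ribosomal protein transcripts lay near those of all tested genes. From 3 h on they lay below those of cytosolic ribosomal proteins and of respiratory complex I. This complex is the NADH dehydrogenase, of which the mitochondrial ribosome makes some core subunits. The median rate of 70 tested members in WT was 42.6, 44.9, 41.7, 21.7, 11.0, 2.09, 0.994 and 0.764% over the 8 time points. In YBX1-/- it was 34.2, 33.4, 28.2, 19.3, 6.40, 1.39, 1.23 and 0.931%. The median was thus level for the first hour in WT and already lower at 1 h in YBX1-/-, and stood near 1% at 18 h in both. At 6 h, the medians of complex I genes were 23.3% in WT and 15.2% in YBX1-/-, and those of cytosolic ribosomal protein genes 28.6% and 17.0%, above the members in both.

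Testing needed a rate above 0 in 12 or more of the libraries, which 46 Mrpl and 24 Mrps genes met. Mrpl9, Mrps15, Mrps18b and Mrps30 were not tested, and 32 members were above 0 in all 16 libraries. In a straight line of log2(rate + 0.1 percentage points) over hours, fitted with limma across 7411 genes, the label fell in 70 of 70 tested members in WT at a Benjamini-Hochberg adjusted p under 0.05; 94.7% of all tested genes did so. In YBX1-/- it also fell in 70 of 70, against 92.6% of all tested genes. A fall is nearly universal in a chase, so these counts say little about the members.

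**Figure D1:**
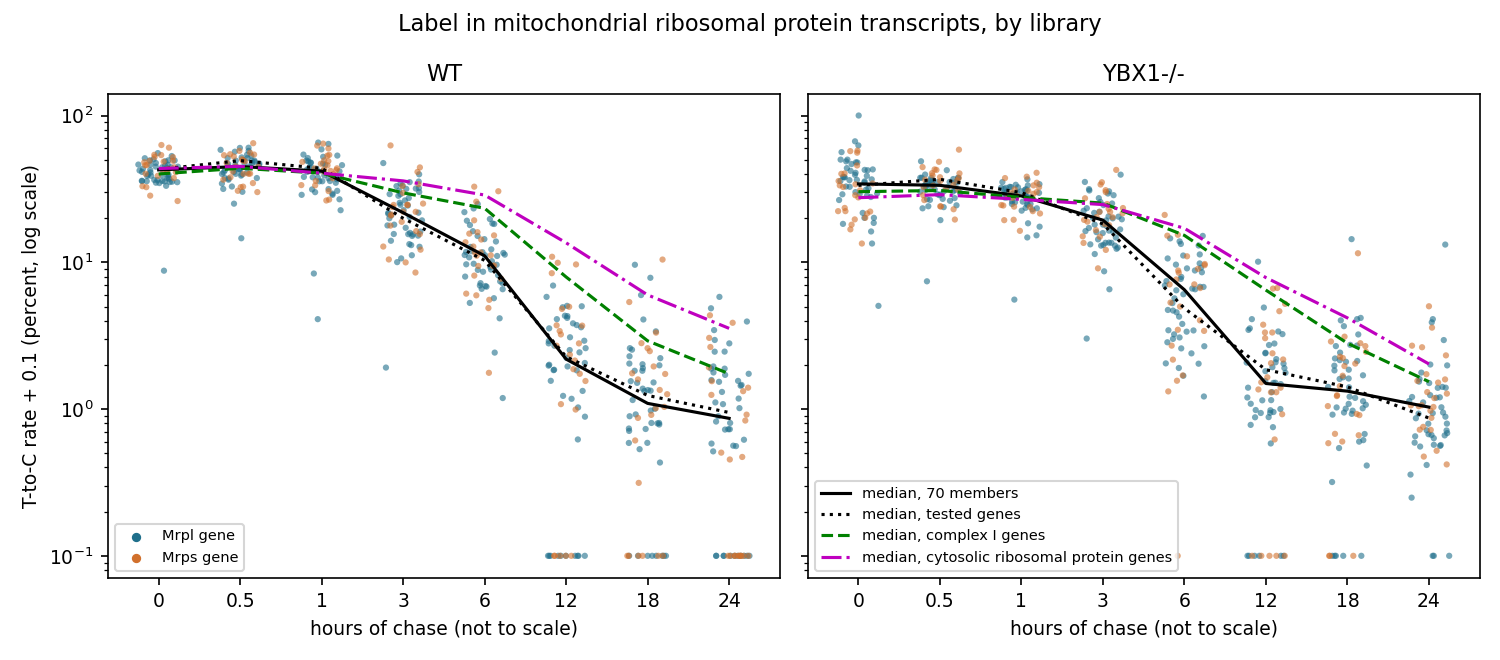
T-to-C rate of each of the 70 tested members (points, blue for Mrpl and orange for Mrps genes, 0.1 percentage points added, log axis) at each time of chase (evenly spaced, not to scale) in WT (left) and YBX1-/- (right), with lines for the median of the members, of 7411 tested genes, of complex I genes and of cytosolic ribosomal protein genes. The member line follows that of the tested genes and lies below the other 2 lists from 3 h on, and the points at the bottom are rates listed at 0.

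The median half-life by the straight line was 3.60 h in WT (SE 0.624 over time points left out in turn) and 4.23 h in YBX1-/- (SE 0.830). The medians of all tested genes were 3.72 and 4.06 h. The SE is that of the member median, not of its difference from all tested genes, which was not tested. With each time point left out in turn, the member median stayed below that of all tested genes in WT and above it in YBX1-/-. Without 24 h, for example, members had 3.04 and 3.44 h and all tested genes 3.115 and 3.365 h. Complex I genes had medians of 4.77 and 5.23 h and cytosolic ribosomal protein genes 6.34 and 5.86 h. Mrpl genes had medians of 3.66 and 4.14 h and Mrps genes 3.52 and 4.55 h. The quartiles of the members were 3.00 and 4.20 h in WT and 3.81 and 4.82 h in YBX1-/-.

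How much label was left at 6 h can be read without a fit, as the rate at 6 h in percent of the mean rate at 0.5 and 1 h. Members kept a median of 24.1% in WT and 19.4% in YBX1-/-, and all tested genes 22.3% and 14.8%. Complex I genes kept 56.6% and 55.8%, and cytosolic ribosomal protein genes 67.4% and 66.7%. In WT, 3 of 70 members reached the complex I median, in YBX1-/- 1 did, and none did in both. The share was lower in YBX1-/- in 50 of 70 members and in 5242 of 7411 tested genes.

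Members differed widely among themselves in this share. Across the 70 members the WT and YBX1-/- shares gave a Pearson correlation of 0.675 and a rank correlation (Spearman) of 0.700; the points share their libraries, and members are not independent replicates. Mrps21, a small subunit protein with a bacterial counterpart, kept the most in WT (62.9%, and 44.1% in YBX1-/-). Its mean coverage signal on Ts, 256, was the lowest of the tested members, against 100726 for Mrps14, so its share is uncertain. Mrps14, of the head of the small subunit, kept 55.5 and 53.8%, Mrpl42, a large subunit protein found only in mitochondria, 54.8 and 42.9%, and Mrpl33, of the large subunit, 51.9 and 45.8%. Mrpl13, a large subunit protein, kept 46.0 and 57.6%. At the other end, Mrps5 kept 3.89 and 10.8%. The 44 tested members with a bacterial counterpart kept medians of 24.6% in WT and 22.4% in YBX1-/-, and the 26 found only in mitochondria 23.5 and 16.2%; this grouping was made after the values were seen.

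**Figure D2:**
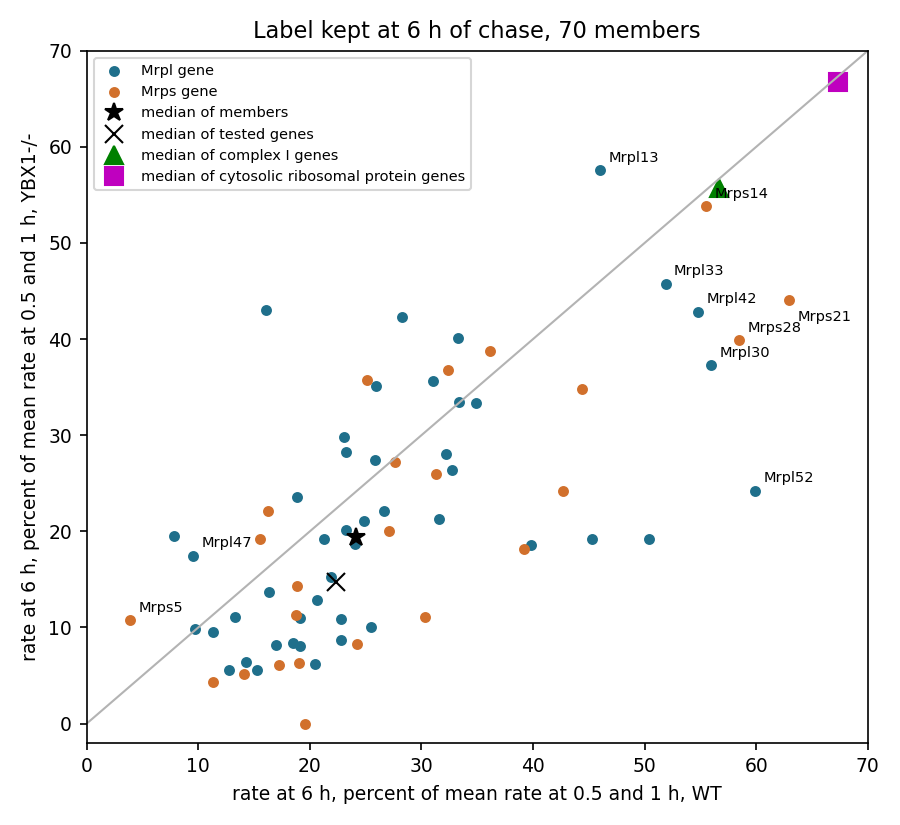
Rate at 6 h in percent of the mean rate at 0.5 and 1 h, WT on the x axis and YBX1-/- on the y axis, for 70 members (points, 3 libraries per genotype) with medians of the members, tested genes, complex I genes and cytosolic ribosomal protein genes; the line marks equal shares. The member median (24.1 and 19.4%) lies near that of the tested genes, and Mrps14, Mrpl33, Mrpl42, Mrps21 and Mrpl13 are among the members nearest to complex I.

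Among the 4 most read members, Mrps14, Mrpl33 and Mrpl42 kept more label at 6 h than the member median in both genotypes, and Mrpl17 kept less. Mrps14 (chr1:160199428-160199820, 3′ UTR and coding) had rates of 53.9, 55.7, 53.9, 41.2, 30.4, 9.83, 3.22 and 2.55% in WT. In YBX1-/- they were 40.2, 40.4, 37.4, 35.0, 20.9, 6.59, 3.02 and 1.46%, lower at every time point. Its straight-line half-life was 4.93 h in WT and 4.83 h in YBX1-/-, and a second interval of the same gene, which does not overlap the first, gave 4.87 and 4.45 h.

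Mrpl33 (chr5:31622427-31622644, 3′ UTR) had rates of 44.7, 43.3, 46.1, 31.9, 23.2, 6.84, 3.98 and 3.85% in WT. In YBX1-/- they were 29.4, 30.2, 30.0, 25.7, 13.8, 4.82, 4.08 and 3.80%, lower through 12 h and nearly equal at 18 and 24 h. Half-lives were 5.92 and 6.95 h.

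Mrpl42 (chr10:95480805-95480977, 3′ UTR and coding) had rates of 50.3, 43.0, 47.7, 39.7, 24.9, 5.71, 1.92 and 2.36% in WT. In YBX1-/- they were 37.8, 36.2, 34.0, 31.4, 15.0, 2.09, 2.11 and 0.838%, lower at 7 of the 8 time points. Half-lives were 4.68 and 4.18 h, and a second interval gave 3.67 h in WT and 3.42 h in YBX1-/-. The member medians were 3.60 and 4.23 h, so by the straight line Mrpl42 was not slow in YBX1-/-.

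Mrpl17 (chr7:105809657-105810144, 3′ UTR and coding), whose protein sits near the exit tunnel, lost its label sooner. Its rates were 38.2, 36.5, 30.0, 15.5, 6.85, 1.74, 0.489 and 0.459% in WT. The YBX1-/- rates were 29.0, 26.2, 22.4, 12.9, 3.13, 0.779, 0.913 and 0.533%. Half-lives were 3.57 and 4.08 h. Across members, mean CPM and half-life had a Spearman rho of 0.413 in WT and 0.0573 in YBX1-/-, and over all tested genes 0.241 and 0.183.

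The longest half-lives by the straight line belonged to transcripts with unusual curves. Mrpl47 (8.24 h in WT, 6.88 h in YBX1-/-), a large subunit protein at the exit tunnel, had little label from the start, with rates of 8.67, 14.5, 8.29, 10.5, 1.09, 1.74, 2.12 and 1.43% in WT. The YBX1-/- rates were 4.95, 7.32, 5.47, 2.92, 1.12, 0.680, 0.514 and 0.617%. Its interval was 20.6% covered by Actl6a on the opposite strand, and the part of that gene in its rate was not tested. Mrpl52 (8.05 and 12.1 h), a large subunit protein found only in mitochondria, kept label late. Its rates were 35.3, 37.4, 35.6, 31.6, 21.9, 4.08, 9.52 and 5.71% in WT, and 66.7, 35.1, 36.7, 39.5, 8.70, 10.0, 14.3 and 13.1% in YBX1-/-. It was above the member median at 18 and 24 h in both genotypes. Its interval of 70 bases had a mean coverage signal on Ts of only 614, so its rates are uncertain.

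Next in WT came Mrps21 (6.03 h) and Mrpl33. In YBX1-/- Mrps28 had 7.01 h. The shortest half-lives in WT were those of Mrps5 (2.23 h), Mrpl37 (2.27 h), Mrps34 (2.29 h) and Mrps6 (2.41 h), each listed at 0 in WT at 18 and 24 h. In YBX1-/- the shortest were Mrpl4 (2.74 h), Mrpl50 (3.03 h), Mrps21 (3.03 h) and Mrpl37 (3.13 h). The interval of Mrpl4 gave 3.70 h in WT. A second interval of Mrpl4, which does not overlap the first, gave 2.44 h in WT and 3.96 h in YBX1-/-. The order of the genotypes thus turned between the intervals of Mrpl4. The Spearman rho of the 2 straight-line half-lives was 0.212 over 70 members and 0.238 over all tested genes. Their Pearson correlation was 0.518 and 0.0386. In members the rho was lower than the 0.700 of the share kept at 6 h, which was not computed over all tested genes.

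**Figure D3:**
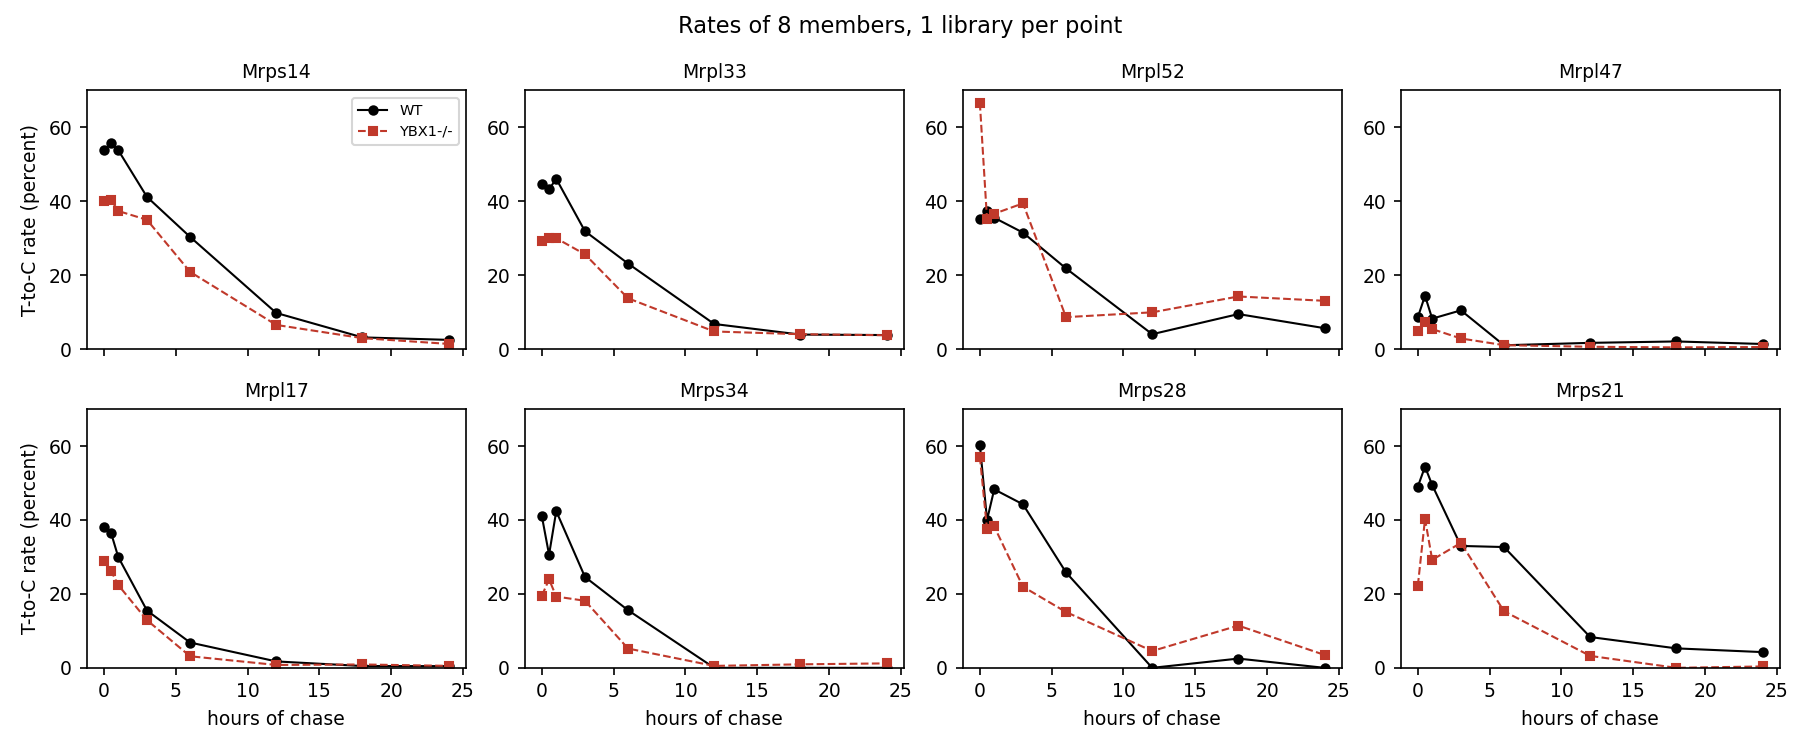
T-to-C rate in percent (y axis) over hours of chase (x axis) for 8 members in WT (black circles) and YBX1-/- (red squares), 1 library per point. Mrps14 and Mrpl33 decline slowly in both genotypes and Mrps21 in WT, Mrpl52 keeps label at 18 and 24 h in both genotypes, and Mrpl47 is below 15% in every library.

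Half-lives of other members of known function follow. Mrpl12, of the flexible stalk that recruits translation factors, had half-lives of 3.91 h in WT and 3.88 h in YBX1-/-. Mrpl11, at the base of the stalk, had 3.78 and 4.03 h. Mrps12, of the decoding centre, had 3.54 and 5.01 h, the latter above the upper quartile of members. Mrpl41, a large subunit protein, had 3.55 and 4.56 h. Mrpl45, near the exit tunnel at the inner membrane, had 4.30 and 3.88 h, with a WT rate of 0 at 12 h and 7.75% at 18 h. Mrpl58, a peptidyl-tRNA hydrolase that became part of the large subunit, had 3.24 and 4.14 h.

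The 3 Mrps18 genes descend from 1 bacterial protein and can be set side by side. Mrps18a had half-lives of 3.03 h in WT and 3.28 h in YBX1-/-, and Mrps18c 4.10 and 4.54 h. Mrps18b was listed at 0 in 7 libraries, among them WT at 0.5 and 1 h, and its interval was fully covered by Gm16279 on the opposite strand. Mrps30 was listed at 0 in 5 libraries. Its rates in WT were 39.4, 73.2, 54.9, 36.5 and 14.3% from 0 to 6 h and 0 from 12 h on.

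The second question, which the series' title poses as one of mRNA stability, was whether loss of YBX1 changed the pace. No member passed. The decay rate difference is the slope in YBX1-/- minus that in WT, in log2 per h after the median of each library was subtracted, so that a positive value is a slower loss in YBX1-/-. In limma, 0 of 70 members had an adjusted p under 0.05 in either direction, against 0.0405% of tested genes slower and 0.0675% faster. At an unadjusted p under 0.05 there were 11 members (15.7%, against 12.5% of tested genes). Of these, 9 had a slower and 2 a faster loss in YBX1-/-, a split that was not counted over all tested genes. The coefficient was positive in 43 members and negative in 27, against 3887 and 3524 of all tested genes. Its median was 0.018 log2 per h in members and 0.004 over all tested genes.

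Of the 9 slower members at an unadjusted p under 0.05, 7 were Mrps genes, which made up 24 of the 70 tested members. Of the 2 faster members, 1 was an Mrps gene. Whether the subunits differ was not tested. The smallest p belonged to Mrps34, a small subunit protein found only in mitochondria (difference 0.20 log2 per h, SE 0.047, limma adjusted p = 0.145). Its rates were 41.0, 30.6, 42.4, 24.6, 15.6, 0, 0 and 0% in WT. Those in YBX1-/- were 19.5, 23.9, 19.3, 18.1, 5.22, 0.521, 0.948 and 1.20%. YBX1-/- was thus below WT through 6 h and above it from 12 h, where WT was listed at 0. The interval of Mrps34 (chr17:24896081-24896758, plus strand) is fully covered by Mapk8ip3 on the opposite strand and 38.2% by Nme3 on the same strand, so its reads are uncertain. It gave half-lives of 2.29 h in WT and 4.69 h in YBX1-/-. A second interval of Mrps34, at 3.44 CPM, gave 2.59 and 4.26 h, and its overlap with other genes was not examined.

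The next were Mrps6 (0.16 log2 per h, SE 0.040), Mrps5 (0.22, SE 0.061) and Mrps28 (0.22, SE 0.062), small subunit proteins with limma adjusted p of 0.153, 0.186 and 0.188. Mrps5 had WT rates of 52.0, 40.0, 45.7, 62.5, 1.67, 0, 0 and 0%, and YBX1-/- rates of 16.7, 42.9, 30.0, 22.0, 3.92, 0, 2.17 and 2.22%. Mrps28 had WT rates of 60.3, 40.0, 48.3, 44.2, 25.8, 0, 2.50 and 0%, and YBX1-/- rates of 57.1, 37.5, 38.2, 22.0, 15.1, 4.55, 11.4 and 3.49%. In both, WT rates were at or near 0 late in the chase. The mean coverage signal on Ts was 1229 for Mrps5 and 492 for Mrps28. Over 0 to 6 h alone the difference was −0.04 log2 per h in Mrps28, the opposite direction, and 0.39 in Mrps5, where the WT rate went from 62.5% at 3 h to 1.67% at 6 h. Over 0 to 12 h it was 0.11 in Mrps5.

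Rates listed at 0 late in the chase moved with these values. In the 9 slower members, 17 of 27 WT rates at 12, 18 and 24 h were listed at 0, and 1 of 27 YBX1-/- rates. A late WT rate of 0 itself makes the WT slope steeper, so choosing these 9 by slope favours such zeros. In the 59 members outside the slower and faster groups it was 33 of 177 in WT and 20 of 177 in YBX1-/-. Over all 70 members it was 50 of 210 in WT and 22 of 210 in YBX1-/-, and over the tested genes 23.2% and 20.3%. Of 24 Mrps genes, 5, 6 and 10 were at 0 in WT at 12, 18 and 24 h, and 5, 3 and 0 in YBX1-/-. At 24 h, 32.5% of tested genes were at 0 in WT and 14.2% in YBX1-/-. A listed 0 may be few reads or no label, and the part of the zeros in the differences was not tested. A limit to the 32 members above 0 in all libraries does not test it, since a member whose label is lost late is removed by that limit.

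On the faster side, the difference of Mrps21 was −0.18 log2 per h (SE 0.052, limma adjusted p = 0.188). Its rates were 49.0, 54.4, 49.4, 33.0, 32.7, 8.33, 5.26 and 4.26% in WT. Those in YBX1-/- were 22.2, 40.3, 29.2, 33.8, 15.3, 3.23, 0 and 0.375%. It was lower in YBX1-/- at 7 of 8 time points, with a mean coverage signal on Ts of 256, the lowest of the tested members. Mrpl53 (−0.06, SE 0.024), Mrpl42 (−0.05, SE 0.021) and Mrps10 (−0.05, SE 0.028) followed, with limma adjusted p of 0.376, 0.424 and 0.493. The interval of Mrpl53 is fully covered by Gm42688 on the same strand.

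**Figure D4:**
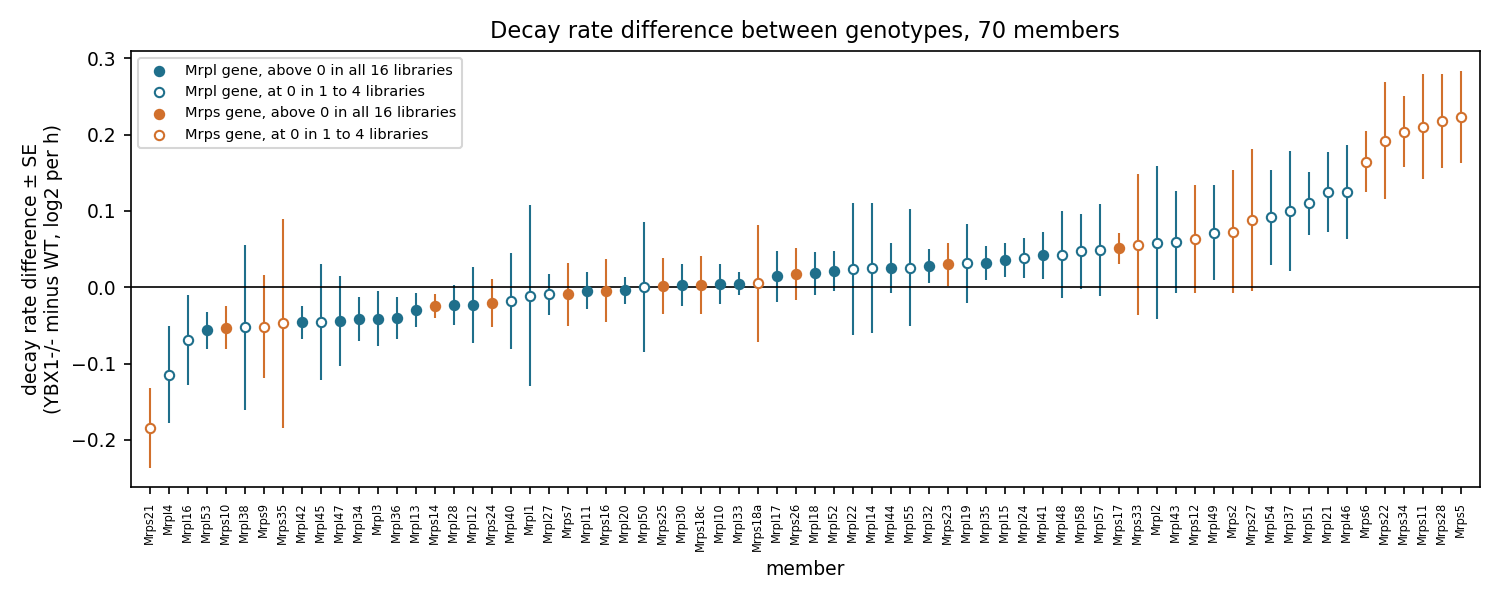
Difference in decay rate between YBX1-/- and WT (log2 per h, positive for slower loss in YBX1-/-, with SE bars) of the 70 tested members in order of value; open circles had a rate of 0 in 1 to 4 libraries. The values furthest from 0 at both ends, from Mrps21 at −0.18 to Mrps5 at 0.22, are open circles, and members above 0 in all libraries lie between −0.06 and 0.05.

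The count of members that passed changed with the choice of time points. Over 0 to 12 h, 4 members passed in limma: Mrpl14 (0.49 log2 per h, adjusted p = 0.0463), Mrpl45 (0.33, adjusted p = 0.0467) and Mrps22 (0.44, adjusted p = 0.0494) with a slower loss in YBX1-/-, and Mrps18a (−0.29, adjusted p = 0.0480) with a faster one. In that fit 3.62% of all tested genes passed, and each of the first 3 was listed at 0 in WT at 12 h, as Mrps18a was in YBX1-/-. Without 12 h, 3 members passed: Mrps28 (adjusted p = 0.0422), Mrps34 (adjusted p = 0.0381) and Mrps5 (adjusted p = 0.0478), with 2.75% of all tested genes.

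A curve with a constant floor, fitted to the rates themselves rather than to their logarithm, gave the opposite balance. Its median half-life was 3.02 h in WT and 2.83 h in YBX1-/-. A floor curve through the library medians of all tested genes also gave a shorter half-life in YBX1-/-, at 2.76 and 2.66 h, against 3.00 and 2.87 h through the medians of the members. By the straight line the half-life was longer in YBX1-/- in 52 of 70 members, and by the floor fit in 29. The straight-line median of all tested genes was also longer in YBX1-/-, at 4.06 h against 3.72 h in WT. How many of those genes were longer was not counted. Both fits gave a longer half-life in 23 members and a shorter one in 12. Among the 32 members above 0 in all libraries, 21 were longer by the line and 11 by the floor fit. On its log scale, the straight line counts late rates near 1% as fully as early rates near 40%. Its slope also depends most on 24 h, the time furthest from the mean of the hours. Without 24 h the WT median of members was 3.04 h in place of 3.60 h, a larger move than without any other time point. The floor fit rests mainly on the early rates.

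In WT and YBX1-/-, floor half-lives were 5.51 and 5.59 h for Mrps14 and 5.33 and 5.29 h for Mrpl33. By the straight line they were 4.93 and 4.83 h and 5.92 and 6.95 h, so in both members the order of the genotypes turned between the fits. For Mrps14 the floor fit's ranges over time points left out in turn were 5.15 to 5.88 h and 5.21 to 6.10 h, which overlap. Mrps34 had 3.83 and 3.94 h. For Mrps28 the direction turned, with 4.60 h in WT and 1.77 h in YBX1-/- above a floor of 7.25%, and for Mrpl52 with 5.83 and 1.71 h above a floor of 12.1%. Ranges of the 2 genotypes lay apart in 19 members: 6 were longer in YBX1-/- (Mrpl14, Mrpl45, Mrps9, Mrps10, Mrps16 and Mrps17) and 13 shorter. No test was made between floor fits, and they were not made gene by gene for all tested genes, so these counts have no background.

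**Figure D5:**
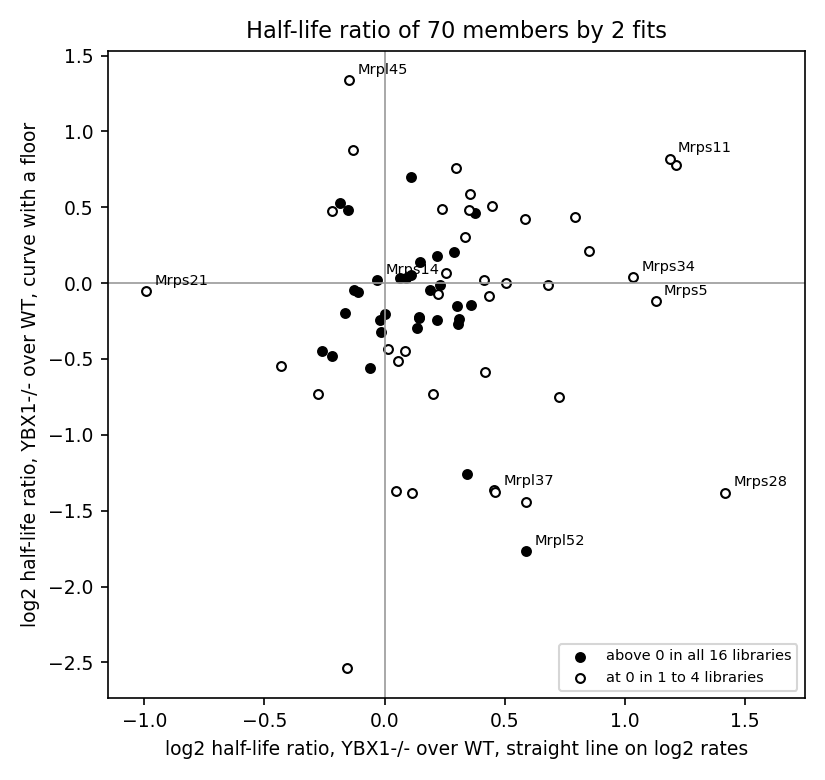
Log2 ratio of the half-life in YBX1-/- to that in WT for 70 members, by the straight line on log2 rates (x axis) and by the curve with a floor (y axis); open circles had a rate of 0 in 1 to 4 libraries. Members to the right of 0 number 52, and 29 of the 70 lie above 0 on the y axis.

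The third comparison was the level of label over the whole chase. Raw rates were lower in YBX1-/- early on, in 57, 64, 67, 47 and 63 of 70 members at 0, 0.5, 1, 3 and 6 h, and in 39, 27 and 33 at 12, 18 and 24 h. Tested genes at large moved with them, at 75.0, 85.5, 87.5, 59.1 and 86.0% of genes at the first 5 time points. Relative to the library median, no member passed: limma gave 0 of 70 at an adjusted p under 0.05, against 0% of tested genes in either direction, and 1 member at an unadjusted p under 0.05, against 5.60% of tested genes. The relative difference was positive in 40 members and negative in 30, against 3760 and 3651 of all tested genes. Its median over the members was 0.05 on the log2 scale (SE 0.090 over time points left out in turn, range 0.01 to 0.12). Without the YBX1-/- library at 0 h the median was 0.02, and without 18 h it was 0.01. Without subtraction of the library median it was −0.30, with −0.34 over all tested genes.

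The 1 member was Mrpl52, with a relative level 0.71 higher in YBX1-/- on the log2 scale (SE 0.217, limma adjusted p = 0.779) and higher at 7 of 8 time points. The next on that side were Mrps28 (1.67, SE 0.771), Mrps17 (0.45, SE 0.223) and Mrpl35 (0.42, SE 0.209), all with an adjusted p of 0.779 in limma. For Mrpl35 the interval of highest coverage on Ts gave 0.14. On the lower side were Mrps21 (−1.36, SE 0.652), Mrpl34 (−0.50, SE 0.263), Mrpl53 (−0.44, SE 0.255) and Mrpl36 (−0.40, SE 0.250), with the same adjusted p. Mean coverage signals on Ts were low in Mrpl52 (614), Mrps28 (492) and Mrps21 (256), which limits these values.

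Genes that work with these proteins were listed from function. No gene of the 3 lists passed either genotype comparison in limma. The decay difference was positive in 1 of 4 tested mitoribosome subunits with other symbols (Dap3, Chchd1, Aurkaip1 and Gadd45gip1). It was positive in 7 of 9 mitochondrial translation factors and in 11 of 14 factors of ribosome assembly and rRNA maturation, with medians of 0.06 log2 per h in both. Over all tested genes it was positive in 3887 of 7411, with a median of 0.004. At an unadjusted p under 0.05 in limma there were 0, 2 and 1 genes in the 3 lists, against 12.5% of all tested genes. The smallest p was that of Tufm, the mitochondrial elongation factor Tu (0.21 log2 per h, SE 0.058, adjusted p = 0.187), with half-lives of 2.19 h in WT and 4.39 h in YBX1-/-. Tsfm, its exchange factor, had 2.43 and 4.30 h, and Dap3, a GTP-binding protein of the small subunit, 5.97 and 4.51 h.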

How the data were processed

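Members and lists were chosen with earlier results of these data known; the promoter motifs, the grouping by bacterial counterpart and the count of late zeros were added after the values were seen. The authors deposited 1 table of 86993 intervals with a T-to-C rate per library as a fraction from 0 to 1. Per the file headers it also holds CPM and a coverage signal on Ts, both as the authors' means over libraries, and the T content. The rate's denominator, the counting program and the depth per library are not given in the sources used here, so no interval is given for a rate, and no background was subtracted. Per the submitters' processing notes, CASAVA, HISAT2 2.1.0 and the human build GRCh38 were used. Identifiers are mouse, and the T content equalled that of GENCODE M21 sequence (GRCm38) in all 9606 intervals compared, so coordinates are given in GRCm38, counted from 1.

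Per gene the interval of highest mean CPM was used. Rates in percent were analysed as log2(rate + 0.1) with limma 3.58.1 (R 4.3.3, with trend) over the 7411 genes with a rate above 0 in at least 12 of 16 libraries, with p adjusted by Benjamini-Hochberg and a threshold of 0.05. The half-life is minus 1 over the slope of a line per genotype. Decay and level differences came from models with time point as a factor, on values centred on the library median (6 and 7 residual degrees of freedom). The added 0.1 shrinks differences of low rates. Floor curves were fitted with scipy 1.17.1 in Python 3.11.15. The scripts were tested on simulated data. Alternatives were the pseudocount, filters, interval, time points left out, centring and the time factor.

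Genes named were a set of members of known role, the 4 members of smallest p per direction and comparison, the 4 longest and shortest half-lives per genotype, the most read members and every member that passed; others were named after their values were seen.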

Additional observations from a re-analysis of the deposited data

How the results depend on the processing

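The label fell in 64 to 70 of 70 members in WT and in 63 to 70 in YBX1-/- under every other added value and choice of time points, in 67 in YBX1-/- without its 0 h library, and in 32 of 32 members in each genotype with rates above 0 in all 16 libraries. The median half-life of members in WT was 4.23 h with 0.5 percentage points added, 2.68 h over 0 to 12 h and 2.69 h over 0 to 6 h; in YBX1-/- it was 2.60 and 2.50 h over those times. Members with a decay rate difference numbered 4 over 0 to 12 h and 0 to 3 with a time point left out in turn. The median decay difference (log2 per h) was 0.0252 with 0.01 added, 0.00891 with 0.5 added, 0.00511 with rates above 0 in all libraries, 0.0393 over 0 to 6 h and 0.0382 without centring. It turned to −0.0279 with genes above 0 in at least 1 library and to −0.00287 over 0 to 12 h. Medians of all tested genes in these settings were −0.0420 and 0.00332. They were 0.0246 over 0 to 6 h and 0.0241 without centring, so part of these shifts was shared by all tested genes. The median level difference turned to −0.0325 (above 0 in all libraries), −0.0264 (0 to 12 h), −0.00510 (0 to 6 h) and −0.299 (not centred). Over 0 to 6 h the decay difference turned for Mrps34 (−0.00537), Mrps6 (−0.105), Mrps28 (−0.0383), Mrps21 (0.0826), Mrpl42 (0.0403) and Mrps10 (0.120, and 0.0585 over 0 to 12 h). The cause was not tested. Without the YBX1-/- library at 0 h no member passed either genotype comparison. The genotype comparisons pair the libraries of a time point through the time factor; without that pairing (no block) 0 members passed as well. Unknown depth limits every rate near 0.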
